A study of Mus musculus with 16 samples.

Results

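The comparison described here set tumour CD8 T cells labelled Foxp3DN against cells labelled MockDN. It holds 8 of the series' 16 RNA sequencing libraries, 4 of Foxp3DN and 4 of MockDN, chosen by their sample titles alone and paired by the replicate number in the title. Both groups were OT1 cells of C57BL/6 background, which are CD8 T cells that carry a transgenic receptor for a peptide of ovalbumin (OVA). Tumour-bearing mice received a mixture of transferred cells, and 5 days later the transferred cells were sorted from tumour cell suspensions by CD8, by CD45.1 and/or CD90.1, and by exclusion of a dead-cell dye. The other 8 libraries, 4 of Foxp3UP and 4 of MockUP, came from the same kind of cells and are called the UP arm below. The labels do not define UP and DN, do not say how Foxp3 was changed, and describe the transferred mixture only as Foxp3UP and Mock cells, so the group names are used as names. Neither the tumour nor the age of the mice is given in the labels, and nothing in them says that the replicates came from separate animals. The p-values below therefore measure the spread between these libraries, which may be technical.

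Foxp3 is the transcription factor that sets the identity of regulatory T cells, where it raises genes such as Il2ra, Ctla4 and Ikzf2 and holds down Il2. Killing by CD8 T cells rests on another set of genes, among them the granzymes and perforin, while Tcf7, Il7r and S1pr1 mark less differentiated cells. Interferons act on T cells through surface receptors whose signals switch on antiviral genes such as the Ifit, Oas and Mx families.

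Foxp3DN and MockDN cells had closely similar transcriptomes. Apart from Thy1, which encodes the sort marker CD90, no gene passed the test when the spread was estimated over all 16 libraries. In a fit of the 8 DN libraries alone, 31 genes passed, and all but Thy1 and Max differed by less than 1.5-fold. Interferon-stimulated genes such as Ifit1, Mx1 and Rtp4 rose in that fit, and cell cycle genes such as Mcm5, Bub1b and Cdk1 fell in it. In the UP arm, interferon-stimulated genes as a group were also higher in Foxp3UP, and by more, while cell cycle genes leaned higher. Foxp3 itself was not higher in Foxp3DN than in MockDN.

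Library totals ran from 10385347 to 13226590 counts in Foxp3DN and from 10490711 to 12573361 in MockDN. Levels are given as CPM, the counts of a gene relative to the library's TMM-scaled total, differences as log2 fold changes of Foxp3DN over MockDN, and n is 4 in each group. Defining markers of CD8 T cells were abundant. Cd8a stood between 875.5 and 1151 CPM in Foxp3DN and between 907.5 and 1107 CPM in MockDN, and neutrophil and erythroid markers were near 0, with sums of at most 1.84 and 2.29 CPM in any of the 8 libraries. The largest axis of variation among the 8 libraries, 56.1% of the variance, set replicates 1 and 2 of both groups apart from replicates 3 and 4. Along it, each Foxp3DN library also lay further than its MockDN pair toward the side of replicates 3 and 4. The positions of replicates 1 to 4 were -10.1, -18, 26.1 and 12 in Foxp3DN and -12.5, -29.2, 23.9 and 7.68 in MockDN. After the group means were removed, libraries that shared a number correlated across genes at 0.535, 0.729, 0.69 and 0.432 for replicates 1 to 4, and each Foxp3DN library correlated best with the MockDN library of its own number.

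Foxp3 was measured first. In replicates 1 to 4 its level was 10.31, 10.14, 10.42 and 10.17 CPM in Foxp3DN and 12.62, 13.41, 10.99 and 14.61 CPM in MockDN. The 4 Foxp3DN libraries were nearly equal and all lay below the lowest MockDN library. The log2 fold change was -0.32 (SE 0.15, 95% interval -0.64 to -0.0033, n = 4 pairs), with an edgeR adjusted p of 1.00. A two-sided exact sign-flip test over the 4 pairs gave p = 0.125, the smallest value that 4 pairs allow. Foxp3 lies on chromosome X at 7573644-7595245 (mm10, counted from 1). In the UP arm the same gene was higher in Foxp3UP by 0.88 on the log2 scale, and the effects differed between the arms by -1.21 (adjusted p = 0.0027 for the difference, edgeR).

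Thy1, on chromosome 9 at 44043384-44048579, was the gene with the largest difference among well-measured genes. It stood at 62.26, 50.64, 72.7 and 62.69 CPM in Foxp3DN and at 185.9, 141.6, 195.8 and 181.5 CPM in MockDN. No library of one group came near the other group. The log2 fold change was -1.51 (SE 0.11, 95% interval -1.75 to -1.26), with an edgeR adjusted p of 0.00025. Thy1 encodes CD90, whose CD90.1 form was among the antibodies used to sort the cells. Its difference is given as the value of a sort marker gene and not as a finding.

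**Figure D1:**
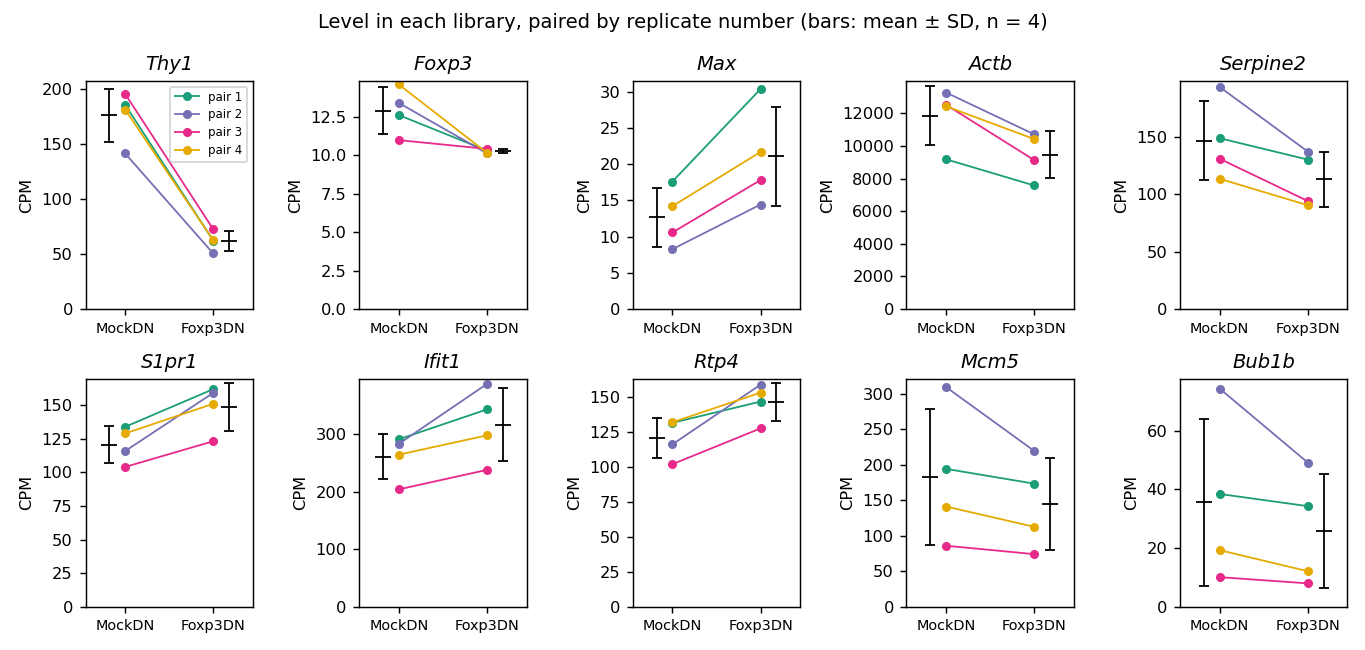
Level in CPM of 10 genes in each of the 8 libraries, with a line joining the MockDN and Foxp3DN library of each replicate number; the bars beside them give mean ± SD (n = 4). Thy1 and Foxp3 do not overlap between the groups, while for the other 8 genes every line runs one way and the groups overlap.

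Over all genes the differences were small. Of 13711 genes tested in the fit of all 16 libraries, 1 was called at an adjusted p under 0.05 (0.00729%), and that gene was Thy1. An unadjusted p under 0.05 was reached by 548 genes (4.00%), of which 239 were higher and 309 lower in Foxp3DN. With the same libraries DESeq2 called Thy1 and Max, and limma-voom called Thy1 alone. Across all genes tested, 157 had libraries that did not overlap between the groups (1.15%), 75 higher (0.547%) and 82 lower (0.598%). The median size of the log2 fold change was 0.0803, and 95% of genes lay within 0.421. In Foxp3UP against MockUP, fitted in the same model, the median size was 0.226 and 3475 genes were called (25.3%). The effects of the 2 arms differed in 1739 genes (12.7%), 844 with the DN effect higher (6.16%) and 895 with it lower (6.53%).

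In the model of all 16 libraries the spread set narrow limits for well-expressed genes and wide ones for scarce genes. The median half-width of the 95% interval was 0.271 on the log2 scale, or 1.21-fold. For 10086 genes (73.6%) the whole interval lay within 1.5-fold in either direction, and for 12489 (91.1%) it lay within 2-fold. Among the 4095 genes with an average log2 CPM of 4 to 6 the median half-width was 0.218, and every interval lay within 2-fold. Among the 2924 genes between 0 and 2 it was 0.632, and 71.0% of the intervals lay within 2-fold. Below 0, 14.1% of 413 genes had an interval within 2-fold, and the median half-width was 0.954. An estimated difference of 2-fold or more was found for 32 genes, and 31 of these had an average log2 CPM under 2, the exception being Thy1.

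**Figure D2:**
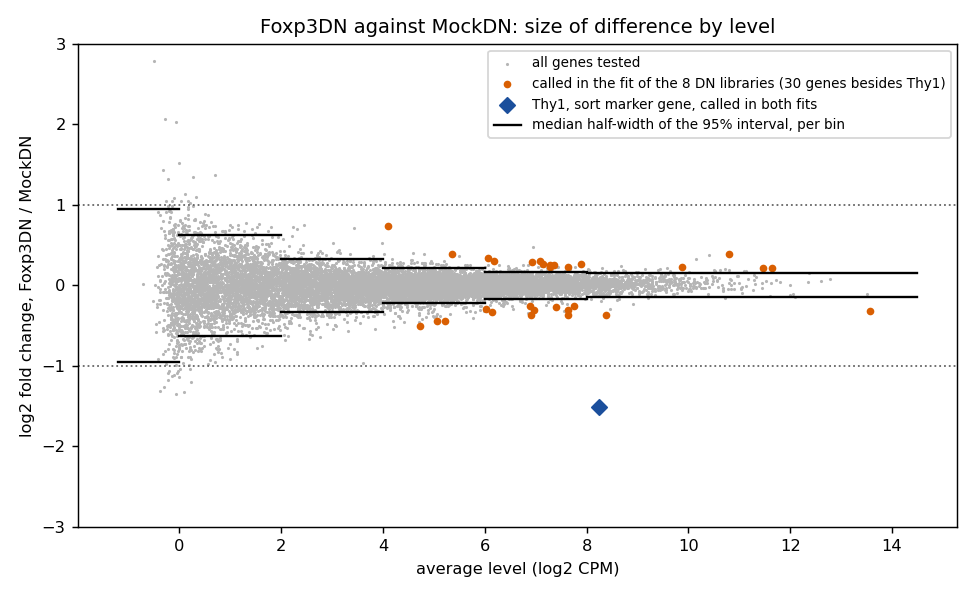
Log2 fold change of Foxp3DN over MockDN (y axis) against average log2 CPM (x axis) for all 13711 genes tested; the black lines give the median half-width of the 95% interval in each range of level and the dotted lines mark 2-fold. Thy1 lies far below the rest, and the 30 other genes called in the fit of the 8 DN libraries lie outside the typical interval of their level, with Max the highest of them.

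The model of all 16 libraries carried the spread of the UP arm as well. The standard deviation of the within-pair differences had a median of 0.15 over 11728 genes in the DN arm and of 0.246 in the UP arm. One UP library, MockUP replicate 2, stood apart from the rest, with 0.279% of counts from mitochondrial genes against 0.358% to 0.709% in the other 15. When the 8 DN libraries were fitted alone with the replicate number as a block, the median standard error was 0.0903 in place of 0.124, and 31 of 13259 genes were called (0.234%), 16 higher (0.121%) and 15 lower (0.113%). An unadjusted p under 0.05 was reached by 1251 genes (9.44%) in that fit. Its median half-width of the 95% interval was 0.188 on the log2 scale, with 79.3% of intervals within 1.5-fold and 95.2% within 2-fold. When only MockUP replicate 2 was left out of the model of all libraries, 24 genes were called, 11 higher and 13 lower. Of these 24, 22 were among the 31, which is 91.7% of the one set and 71.0% of the other. Both fits hold the same 8 DN libraries, so the overlap is a description and no independent support. The calls that follow come from the fit of the 8 DN libraries, and none of these genes passed in the model of all 16 libraries except Thy1. Log2 fold changes, standard errors and intervals of single genes are those of the model of all 16 libraries throughout, also beside an adjusted p of the 8 DN libraries. In that model the adjusted p was 0.27 for Max, 0.92 for Actb and 1.00 for each of the others (edgeR). Without the replicate block, that fit called Thy1 alone.

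Max had the largest change among the 30 genes other than Thy1. It encodes the dimer partner through which MYC binds DNA and lies on chromosome 12 at 76937269-76962201. Its level was 30.39, 14.44, 17.82 and 21.7 CPM in Foxp3DN and 17.62, 8.277, 10.58 and 14.22 CPM in MockDN. The groups overlapped, but each Foxp3DN library was higher than its own pair. The log2 fold change was 0.74 (SE 0.12, 95% interval 0.48 to 0.99), with an adjusted p of 0.00040 in the 8 DN libraries and 0.27 in all 16 (edgeR). Max rose in the DN arm and had a log2 fold change of -0.32 in the UP arm, which did not pass (edgeR adjusted p = 0.068). The difference between the effects passed the test (1.05, adjusted p = 0.0018). Since Max was chosen by its DN effect, which the difference contains, that result is a description. Myc itself was at 477.2 to 607.3 CPM in Foxp3DN and 503.5 to 574.9 CPM in MockDN, with a log2 fold change of 0.05 (95% interval -0.08 to 0.19). Prpf19, a splicing factor and ubiquitin ligase, was also higher in all 4 pairs, by 0.36 (95% interval 0.15 to 0.58), without passing either fit (adjusted p = 0.059 in the 8 DN libraries).

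Actb, the cytoplasmic beta actin gene on chromosome 5, stood at 7583, 10720, 9140 and 10430 CPM in Foxp3DN and at 9187, 13280, 12530 and 12440 CPM in MockDN. It was lower in every pair, though the groups overlapped. The log2 fold change was -0.32 (SE 0.062, 95% interval -0.46 to -0.19), with an adjusted p of 0.00040 in the 8 DN libraries and 0.92 in all 16. The share of counts taken by the 10 most abundant genes was also lower in Foxp3DN in every pair, at 5.52% to 6.04% against 5.91% to 6.28%. In the UP arm Actb was higher in Foxp3UP by 0.33, and the effects differed by -0.65 (adjusted p = 0.00062). Actb too was chosen by its DN effect, so that difference is a description.

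Protease inhibitors and a secreted phosphoprotein were among the genes that fell in the 8 DN libraries. Serpine2, a secreted protease inhibitor, was at 130, 137, 93.97 and 90.31 CPM in Foxp3DN and at 148.6, 193.1, 130.7 and 113.3 CPM in MockDN. Each pair had the lower level in Foxp3DN, with a log2 fold change of -0.37 (SE 0.10, adjusted p = 0.0017 in the 8 DN libraries and 1.00 in all 16). Spp1, which encodes that phosphoprotein, osteopontin, fell by 0.37 with an adjusted p of 0.0027 in the 8 DN libraries. Serpinb9b, a relative of the granzyme B inhibitor Serpinb9, fell by 0.37, with an adjusted p of 0.0030 in that fit. Its level differed more between replicates than between groups, at 396.4 to 424.2 CPM in Foxp3DN replicates 1 and 2 against 85.81 and 152.5 CPM in replicates 3 and 4. Filip1 and Sdf2l1, a chaperone component of the endoplasmic reticulum, also fell in the fit of the 8 DN libraries, with log2 fold changes of -0.50 and -0.30.

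Interferon-stimulated genes were higher in Foxp3DN as a group. All 40 tested members of the interferon response list had a positive log2 fold change, with a median of 0.15 against -0.0013 for all genes tested. None passed the test over all 16 libraries, 11 were higher at an unadjusted p under 0.05 (1.74% of all genes), and 24 were higher in all 4 pairs (8.12% of all genes). In the fit of the 8 DN libraries 5 members rose (0.121% of all genes) and none fell (0.113% of all genes). Those that rose were Ifit1, Ifit3b, Ifi213, Rtp4 and Mx1. The change was small: the highest value in the list was 0.43, in Ifi44, and the lowest 0.0075, in Oas3. The rise was not particular to this comparison. In the UP arm the list had a median of 0.47, with 31 members called higher (13.3% of all genes) and none lower (12.0% of all genes). The DN effect was lower than the UP effect in 17 members (6.53% of all genes) and higher in none (6.16% of all genes).

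Ifit1, which binds viral RNA that lacks host cap methylation, was at 343, 387.2, 237.9 and 297.9 CPM in Foxp3DN and at 291.1, 283.1, 204.1 and 264.4 CPM in MockDN. Every pair had the higher level in Foxp3DN, while the groups overlapped because replicate 3 was low in both. The log2 fold change was 0.27 (SE 0.077, 95% interval 0.10 to 0.44), with an adjusted p of 0.017 in the 8 DN libraries and 1.00 in all 16. Rtp4, an interferon-induced chaperone of receptor proteins, was at 146.9, 159, 127.7 and 153.3 CPM against 131.7, 116.3, 102.1 and 132.1 CPM, with a log2 fold change of 0.29 (adjusted p = 0.019 in the 8 DN libraries). Ifi213, of the family of interferon-induced nucleic acid sensors on chromosome 1, differed by 0.25 and was higher in all 4 pairs. Ifit3b and Mx1, a dynamin-like antiviral GTPase, had log2 fold changes of 0.34 and 0.23.

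Other interferon-inducible genes outside the list were among the 31. Samhd1, which breaks down nucleotides needed by viruses, had libraries that did not overlap, at 1055, 1102, 1131 and 1152 CPM in Foxp3DN and 945.9, 848.8, 991.4 and 1004 CPM in MockDN. Its log2 fold change was 0.23 (95% interval 0.11 to 0.36, adjusted p = 0.028 in the 8 DN libraries and 1.00 in all 16). Cxcl10, a chemokine that draws cells bearing Cxcr3, rose by 0.27 and its receptor gene Cxcr3 was higher by 0.22 without passing either fit. Tgtp2, Ifi208 and Ifit1bl1 rose in the 8 DN libraries by 0.25, 0.23 and 0.31. The Ifit and Ifi200 families and Tgtp2 hold near-identical copies, so the split of reads among their members is uncertain.

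Promoter sequences are shown for the 3 members of the interferon response list that passed in the 8 DN libraries and were matched to a promoter, since these genes moved together. Rtp4 and Mx1 were not matched. The letters searched, on both strands, were GAAA and GAAA separated by any 2 bases, the core of the interferon-stimulated response element, from 250 bases before to 50 after each RefSeq start on GRCm38.p6. Each line gives 90 bases of the gene's strand, with every match inside the line in capitals. The searched window of Ifit3b held 2 matches, and the second does not lie wholly inside its line. The windows are chr1:173599276-173599365 on the minus strand for Ifi213, chr19:34640784-34640873 on the plus strand for Ifit1 and chr19:34607783-34607872 on the plus strand for Ifit3b.
Ifi213: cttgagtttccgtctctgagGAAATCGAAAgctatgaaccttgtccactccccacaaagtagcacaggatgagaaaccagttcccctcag
Ifit1: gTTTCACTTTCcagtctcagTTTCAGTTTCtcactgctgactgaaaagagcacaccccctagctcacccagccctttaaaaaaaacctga
Ifit3b: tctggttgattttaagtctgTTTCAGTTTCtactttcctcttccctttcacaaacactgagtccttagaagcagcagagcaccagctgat
Ifi213 reads the letters forward, and Ifit1 and Ifit3b carry them as the reverse complement. Of the 40 list members, 30 were matched to a promoter and 17 of these held the letters (56.7%), against 303 of 9360 matched genes among those tested (3.24%) and 943 of 27025 promoters in the table (3.49%). Of the proliferation list described next, 2 of 28 matched members held them (7.14%). A match describes the sequence and does not show that a factor binds there.

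Cell cycle genes were lower in Foxp3DN as a group. Of 34 tested members of the proliferation list, 33 had a negative log2 fold change, with a median of -0.24, and the member with a value above 0 was Pcna at 0.0037. None passed over all 16 libraries, 19 were lower at an unadjusted p under 0.05 (2.25% of all genes) and 20 were lower in all 4 pairs (8.50% of all genes). In the fit of the 8 DN libraries 5 members fell (0.113% of all genes), namely Mcm5, Bub1b, Cdk1, Ccnb2 and Tubb5. Mki67, the proliferation marker most often stained, was not among them. It was at 59.4, 65.29, 16.73 and 29.94 CPM in Foxp3DN and 57.61, 93.62, 15.58 and 25.3 CPM in MockDN, higher in Foxp3DN in 3 of 4 pairs and lower in pair 2. Its log2 fold change was -0.06 (95% interval -0.34 to 0.23). In the UP arm the proliferation list had a median of 0.185, with 8 members called higher (13.3% of all genes) and none lower (12.0% of all genes). The DN effect was lower than the UP effect in 13 members (6.53% of all genes) and higher in none (6.16% of all genes).

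Mcm5, a subunit of the replicative helicase, was at 173.3, 219.4, 74.13 and 112.6 CPM in Foxp3DN and at 194.1, 309.2, 85.94 and 141.1 CPM in MockDN. Each pair had the lower level in Foxp3DN, and replicates 1 and 2 were higher than replicates 3 and 4 in both groups. The log2 fold change was -0.30 (SE 0.070, 95% interval -0.45 to -0.15), with an adjusted p of 0.015 in the 8 DN libraries and 1.00 in all 16. Bub1b, a kinase of the spindle checkpoint, was at 34.26, 49.08, 7.985 and 12.11 CPM against 38.41, 74.25, 10.09 and 19.28 CPM, with a log2 fold change of -0.44 (adjusted p = 0.040 in the 8 DN libraries). Cdk1, the mitotic kinase, was at 32.69, 40.12, 6.556 and 11.34 CPM against 38.49, 68.37, 8.692 and 13.65 CPM, and its log2 fold change was -0.44. The gene of its cyclin, Ccnb2, fell by 0.33. Mcm7, another helicase subunit, and Tubb6, a beta tubulin, are outside the list and fell by 0.27 and 0.31.

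These group differences rested unequally on the pairs. The mean difference of the proliferation list was -0.152, -0.504, -0.0637 and -0.174 in pairs 1 to 4, and that of the interferon list was 0.125, 0.318, 0.0971 and 0.134. All 4 pairs had the same sign in both lists, and pair 2 had the largest difference in each. Without pair 2 the list medians were -0.154 and 0.091, and no member of either list was called in the fit of the DN libraries. Without pair 4 no member of either list was called in that fit either, while the list medians were -0.247 and 0.175. Without pair 3 that fit called 20 members of the proliferation list lower and 11 of the interferon list higher. Over all genes it then called 142 of 13200, 61 higher and 81 lower. Proliferation genes also differed between replicates regardless of group, their summed level running from 1090 to 3000 CPM in Foxp3DN and from 1130 to 4220 CPM in MockDN. In bulk libraries, fewer cycling cells and less RNA per cycling cell cannot be told apart.

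**Figure D3:**
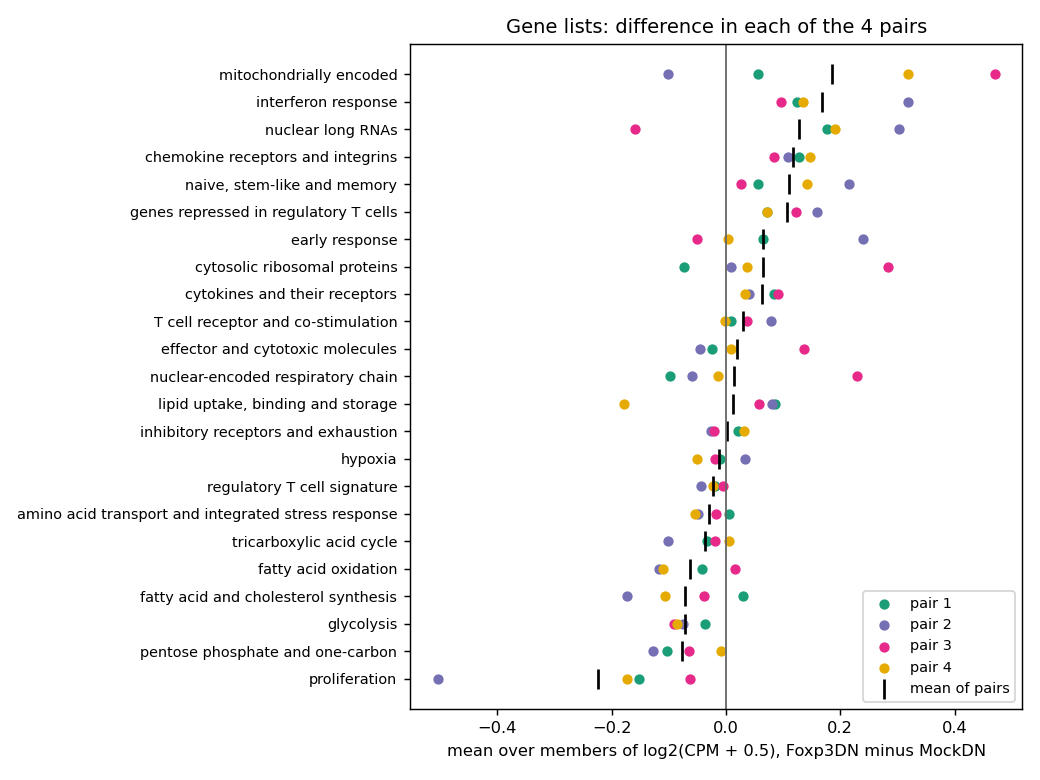
Mean over the tested members of each list of log2(CPM + 0.5), Foxp3DN minus MockDN, for each of the 4 replicate pairs (coloured points) and their mean (black bar). Interferon response genes lie above 0 and proliferation genes below 0 in all 4 pairs, with pair 2 farthest out in both.

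Most genes of less differentiated and of migrating T cells had values slightly above 0, with 1 gene called. Of 22 naive, stem-like and memory genes 19 had a positive log2 fold change (median 0.0537). In all 4 pairs 9 were higher (8.12% of all genes). Without pair 2 that median was 0.0201, and MockDN replicate 2 stood below the other MockDN libraries in the list's mean level. S1pr1, the receptor with which T cells leave lymphoid tissue, was at 161.7, 158.9, 123 and 150.8 CPM in Foxp3DN and at 133.7, 115.7, 103.9 and 128.8 CPM in MockDN. It was higher in every pair, with a log2 fold change of 0.30 (SE 0.073) in all 16 libraries. S1pr1 rose in the 8 DN libraries (edgeR adjusted p = 0.011, and 1.00 in all 16). Tcf7, which encodes the transcription factor TCF1 of stem-like cells, was at 240.5, 220.1, 196.3 and 190.8 CPM against 208.2, 153, 182.5 and 169 CPM. Its log2 fold change of 0.25 (95% interval 0.10 to 0.40) missed the threshold in both fits (adjusted p = 0.059 in the 8 DN libraries and 1.00 in all 16). Il7r, the interleukin 7 receptor chain, had a log2 fold change of 0.20 and did not pass. Among 27 chemokine receptors and integrins, 23 values were positive (median 0.0949) and 10 were higher in all 4 pairs (8.12% of all genes). Of these genes S1pr1 was the member called in the 8 DN libraries. Itgb1, the integrin beta 1 chain, had libraries that did not overlap, at 929.1 to 1055 CPM in Foxp3DN and 836.1 to 919.4 CPM in MockDN (log2 fold change 0.17, 95% interval 0.05 to 0.30, adjusted p = 1.00 in all 16).

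Cytotoxic genes showed no common direction. Of 28 effector and cytotoxic genes 16 were higher and 12 lower (median 0.0309), and none was called in either fit. Gzmb, which encodes granzyme B, was at 8163 to 9136 CPM in Foxp3DN and 8693 to 9853 CPM in MockDN, with a log2 fold change of -0.11 (95% interval -0.29 to 0.07). Prf1, the pore-forming perforin gene, was at 377.9, 384.4, 205.3 and 235.8 CPM against 407.7, 537.6, 220.1 and 276.9 CPM, lower in every pair but with overlapping groups, and its interval ran from -0.40 to -0.06 (adjusted p = 0.077 in the 8 DN libraries and 1.00 in all 16). Gzmc, another granzyme, had a log2 fold change of -0.29. Ccl5, a chemokine of effector cells, stood the other way at 0.32 (95% interval -0.02 to 0.67). It was called when MockUP replicate 2 was left out of the model of all libraries but not in the 8 DN libraries (adjusted p = 0.052). Ifng and Tnf, the main effector cytokines, had log2 fold changes of 0.03 and 0.02, with an interval of -0.27 to 0.34 for Ifng. Among 23 inhibitory receptor and exhaustion genes 12 values were positive and 11 negative. Pdcd1, which encodes the checkpoint receptor PD-1, had the smallest p of these at a log2 fold change of -0.17 (95% interval -0.34 to -0.00050), and Ctla4 and Tox, a transcription factor of exhausted cells, stood at -0.02 and -0.07.

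The regulatory T cell signature was not raised in Foxp3DN. Of 35 tested members 14 had a positive and 21 a negative log2 fold change (median -0.0206), and the values ran from -0.32, which was Foxp3 itself, to 0.24. None was called in either fit. Ctla4 stood at 786.6 to 971.2 CPM in Foxp3DN and 774.2 to 1041 CPM in MockDN, a log2 fold change of -0.02 with an interval of -0.14 to 0.10. Ikzf2, the regulatory T cell factor Helios, had a log2 fold change of -0.04 (95% interval -0.20 to 0.12), and Il2ra, the high-affinity interleukin 2 receptor chain, one of -0.03. In the UP arm 27 of the 35 were called higher (13.3% of all genes) and 2 lower (12.0% of all genes). The DN effect was lower than the UP effect in 25 members by the test of the difference (6.53% of all genes), and higher in 1 (6.16% of all genes). Of 15 genes that regulatory T cells hold down, 14 had a positive value (median 0.0801, and 0.0274 without pair 2). Il2 was at 3.408, 2.369, 5.799 and 5.426 CPM in Foxp3DN and 1.905, 1.242, 4.182 and 3.055 CPM in MockDN, higher in every pair but with overlapping groups. Its log2 fold change of 0.73 had a wide interval, 0.14 to 1.33, and adjusted p values of 1.00 in all 16 libraries and 0.13 in the 8 DN libraries.

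The genes with the largest changes in the UP arm were set beside their values here, and the arms share no control library. The 1825 genes called higher in Foxp3UP had a median log2 fold change of 0.479 there and 0.0015 in Foxp3DN, with none called. The 1650 genes called lower had -0.449 there and 0.0060 here, with Thy1 the single call. For 235 genes higher by at least 2-fold in Foxp3UP the medians were 1.34 and -0.0374, and the effects differed between the arms in 162 of them (12.7% over all genes). Since these genes were chosen by their UP effect, which the difference contains, that count is a description. The largest of these was Ccr3, the eotaxin receptor, with 6.12 in the UP arm. It was at 0.921, 0.7403, 1.513 and 0.8721 CPM in Foxp3DN and 0.3174, 0.9933, 0.82 and 0.2864 CPM in MockDN, with a log2 fold change of 0.71 and an interval from -0.19 to 1.61. Il10, an anti-inflammatory cytokine, had 3.28 in the UP arm and -0.24 here (95% interval -1.04 to 0.56), and its levels of 1.26 to 1.658 CPM in Foxp3DN fell within the MockDN range of 0.6683 to 2.732 CPM. Mmp9, which encodes a matrix metalloprotease, had 5.57 in the UP arm and entered the test through its level there. It was at 0.6447, 0.3701, 0.8405 and 0.5814 CPM in Foxp3DN and 1.508, 1.821, 0.574 and 0.8592 CPM in MockDN, with overlapping groups and pair 3 higher in Foxp3DN. Its log2 fold change of -0.97 did not pass (95% interval -1.86 to -0.07, adjusted p = 1.00), and it was too scarce to enter the fit of the 8 DN libraries. Atp6v0d2, a subunit of the vacuolar proton pump, was at 1.925 to 2.422 CPM in Foxp3DN and 2.46 to 3.412 CPM in MockDN, a log2 fold change of -0.53 that did not pass (95% interval -0.94 to -0.12), against 2.76 in the UP arm.

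**Figure D4:**
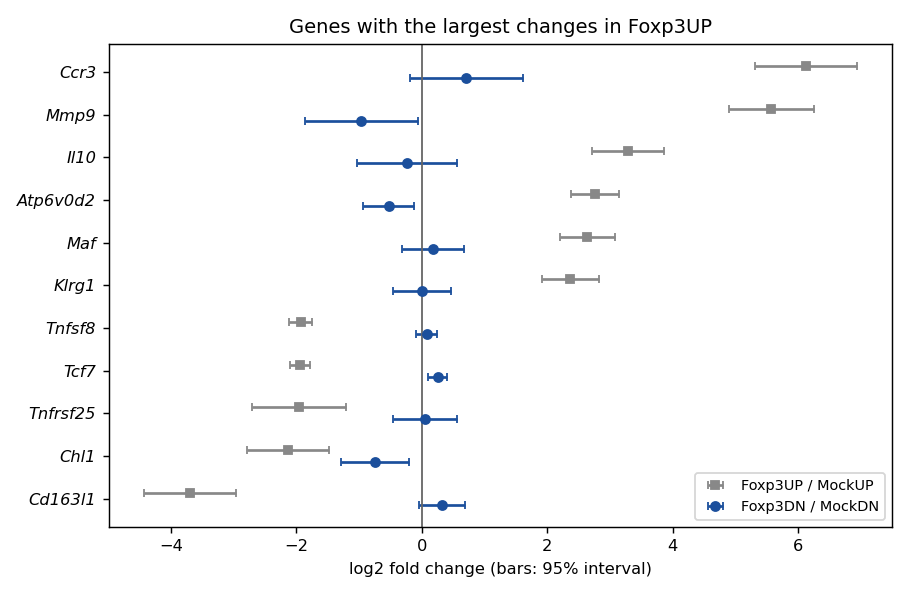
Log2 fold change with its 95% interval in Foxp3UP over MockUP (grey squares) and Foxp3DN over MockDN (blue circles) for 11 genes with the largest changes in the UP arm. The intervals of the DN arm lie near 0 for well-measured genes such as Tcf7 and Tnfsf8 and are wide for scarce ones such as Ccr3, Mmp9 and Il10.

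Metabolic genes were mostly a little lower in Foxp3DN, none with a call in either fit outside the mitochondrial genome. Of 23 glycolysis genes 21 had a negative log2 fold change (median -0.0972). In all 4 pairs 12 were lower (8.50% of all genes), and 3 were lower at an unadjusted p under 0.05 (2.25% of all genes). Pkm, pyruvate kinase, was at 2884, 2830, 2990 and 2636 CPM in Foxp3DN and 2976, 3197, 3242 and 2978 CPM in MockDN, with a log2 fold change of -0.13 (95% interval -0.24 to -0.02). Gpi1, glucose-6-phosphate isomerase, had libraries that did not overlap, with 733.5 to 790.6 CPM against 791 to 864 CPM, a gap of less than 1 CPM between the nearest libraries. Hk2 and Slc2a1, the hexokinase and glucose transporter genes of activated T cells, stood at 0.00. The pentose phosphate and one-carbon list had 17 of 19 negative values (median -0.079), fatty acid and cholesterol synthesis 21 of 27 (median -0.0744), the tricarboxylic acid cycle 19 of 25 (median -0.0509) and fatty acid oxidation 22 of 28 (median -0.0426). Without pair 2 the medians were -0.0352 for fatty acid and cholesterol synthesis and -0.0288 for the tricarboxylic acid cycle, and without pair 1 that of fatty acid oxidation was -0.0784. Nuclear genes of the respiratory chain had 44 positive and 29 negative values of 73 (median 0.0127). Plin2, which coats lipid droplets, stood at -0.23 (95% interval -0.42 to -0.04) and the hypoxia-induced Ndrg1 at -0.21 (95% interval -0.36 to -0.06), and neither passed.

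Transcripts of the mitochondrial genome differed the other way. All 11 tested had a positive log2 fold change (median 0.184), and 4 were higher in all 4 pairs (8.12% of all genes). The cytochrome oxidase gene mt-Co1 was at 2299, 1455, 1695 and 1997 CPM in Foxp3DN and 1648, 1229, 1238 and 1515 CPM in MockDN, higher in each pair though the groups overlapped. It rose in the 8 DN libraries (log2 fold change 0.39, adjusted p = 0.00012), whereas its interval in the model of all 16 was -0.0039 to 0.79 (adjusted p = 1.00). In replicates 1 and 2 alone the median of the list was -0.0045, and in replicates 3 and 4 alone it was 0.360. Without pair 3 it was 0.103. The mean difference of the list was 0.056, -0.101, 0.47 and 0.319 in pairs 1 to 4, lower in Foxp3DN in pair 2. The nuclear RNA Malat1 rose in the same fit by 0.22 (adjusted p = 0.036), together with Gm37376, which lies inside the Malat1 gene on chromosome 19, so that reads of the pair may be shared. Gm2682, a gene model without an assigned function, rose by 0.39. The mitochondrial share of counts, often read as a sign of RNA quality or cell stress, was 0.455% to 0.602% in Foxp3DN and 0.358% to 0.506% in MockDN, higher in Foxp3DN in every pair. In replicates 1 to 4 it was 0.602%, 0.455%, 0.498% and 0.58% in Foxp3DN and 0.506%, 0.445%, 0.358% and 0.417% in MockDN. Its part in the changes of mt-Co1 and Malat1, and in those of the interferon and proliferation lists, was not tested.

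Markers of other tumour cells were present at low levels, and those of the melanocyte lineage and of dendritic cells leaned to Foxp3DN. All 6 tested markers of the melanocyte lineage had a positive log2 fold change, with summed levels of 37.0 to 82.6 CPM in Foxp3DN and 23.1 to 74.2 CPM in MockDN. Tyrp1, a pigment enzyme, was at 14.37, 6.663, 20.68 and 8.818 CPM against 11.43, 4.47, 16.97 and 3.914 CPM, and its log2 fold change of 0.52 (95% interval -0.06 to 1.11) did not pass. All 6 tested dendritic cell markers were positive as well, with summed levels of 87.2 to 153 CPM against 89.0 to 119 CPM. H2-Aa, a class II histocompatibility gene, had a log2 fold change of 0.53, and Cd74, the invariant chain, one of 0.27, without passing in either fit, and Siglech was at 0 in all 8 libraries. Macrophage markers summed to 42.8 to 64.7 CPM in Foxp3DN and 43.0 to 54.4 CPM in MockDN, with 6 positive and 3 negative values. Epithelial markers had 1 positive and 2 negative values. The part of these cells in the differences above was not tested. All 8 markers of CD8 T cells had positive values too (median 0.0687), with Ptprc, which encodes CD45, at 0.11 (95% interval -0.0055 to 0.23).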

How the data were processed

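The measured values are whole-number read counts for each gene and library, deposited by the authors without normalization. Per the submitters' processing notes the tools were STAR 2.6.1 and Subread 1.6.3 with build mm10; the sources used here do not give counting options, strand or annotation release, so overlapping or antisense genes may share reads. Symbols came from GENCODE M21 (55480 of 55573 identifiers matched). No 2 libraries held the same counts.

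Counts passed filterByExpr (minimum count 10), received TMM factors and entered the robust, two-sided quasi-likelihood F test of edgeR 4.0.16 in R 4.3.3. The model held all 16 libraries, with the replicate number of each arm as a block (8 terms) and a Foxp3 term per arm, leaving 6 residual degrees of freedom. A call needed an adjusted p (Benjamini-Hochberg) under 0.05. Numbers were taken as pairs because all 4 same-number correlations passed 0.1. Some libraries of unlike number passed it too, such as Foxp3DN replicate 1 with MockDN replicate 2 (0.309) and Foxp3DN replicate 3 with MockDN replicate 4 (0.381). That threshold alone therefore cannot tell pairing by number from a split of replicates 1 and 2 against 3 and 4. Standard errors came from the fitted information matrix. Pair differences used log2(CPM + 0.5).

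Named genes were a fixed set (such as Foxp3, Gzmb, Tcf7), up to 10 higher and 10 lower genes by call or smallest p with average log2 CPM of at least 1, up to 3 members per list, and the genes with the largest change in the UP arm. The 31 genes of the DN fit, Myc and the list members at the extremes were named after their values were seen. Comparison, lists and genes were chosen with earlier results of these data known. Alternatives used DESeq2 1.42.0, limma-voom (limma 3.58.1), other scalings, filters and libraries left out. The steps were tested on simulated data. The results of some single genes among the 31 are not given.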

Additional observations from a re-analysis of the deposited data

Results flagged for a closer look

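Of 204 groups of 4 libraries examined, 8 had a library set far from the other 3, where chance gives about 1 in 20. Sdf2l1 stood at 63.74 CPM in Foxp3DN replicate 2, above the 3 other Foxp3DN libraries. The other cases are mean list levels, as log2(CPM + 0.5) relative to the mean of the 8 libraries. MockDN replicate 2 was low for the naive, stem-like and memory list (-0.229) and for chemokine receptors and integrins (-0.11), and high for the tricarboxylic acid cycle (0.106). MockDN replicate 3 was at -0.153 for effector and cytotoxic molecules, Foxp3DN replicate 3 at -0.0967 for inhibitory receptors and exhaustion, MockDN replicate 1 at 0.0391 for cytokines and their receptors, and MockDN replicate 4 at 0.348 for the epithelial cell markers.

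For 30 of 51 named genes examined, the Foxp3DN effect differed from the Foxp3UP effect by edgeR's test of the difference (adjusted p under 0.05), against 12.7% of all genes tested. Some of these genes were chosen for a large change in the UP arm or a small p in the DN arm, which in part fixes a difference, so the count is a description. The values are log2 differences, the DN effect minus the UP effect. Foxp3 itself was at -1.206 and the sort marker gene Thy1 at 2.459. Among genes of regulatory T cells, Ctla4 was at -1.029, Ikzf2 at -0.8129, Il2ra at -0.3302, Il10 at -3.525, Maf at -2.454 and Klrg1 at -2.357. Among genes of killing and exhaustion, Gzmb was at -1.182, Prf1 at -1.2 and Havcr2 at -0.6695. Tcf7 was at 2.197, and the TNF family genes Tnfrsf25 and Tnfsf8 were at 2.01 and 2.007. Among other genes with large changes in the UP arm, Mmp9 was at -6.538, Ccr3 at -5.411, Cd163l1 at 4.011, Atp6v0d2 at -3.291 and Chl1 at 1.387. The genes nearest to a call in the DN arm were Max at 1.054, Prpf19 at 0.9051, Frat2 at 0.4668, Ifi213 at -0.3254, Actb at -0.6526, Tubb6 at -0.5658, Ckap2l at -0.7579, Akr1e1 at -1.001, Mcm5 at -0.4189 and Aurkb at -0.5738. The glycolytic gene Hk2 was at 0.7584.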

How the results depend on the processing

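Thy1 was called under every setting. The fit of all libraries called 1 gene in Foxp3DN against MockDN, and also 1 without replicate 1, 2, 3 or 4 in turn, without the replicate block, with replicates 1 and 2 alone and with limma-voom, a stricter filter or another scaling. It called 13 without a filter, 2 with DESeq2, 24 without MockUP replicate 2, 67 in replicates 3 and 4 alone, and 31 in the 8 DN libraries. Of the 67, 13 were among the 31, and of the 13, 8 were. The fit of the 8 DN libraries called 9 to 142 genes when 1 pair was left out (13, 13, 142 and 9 without pairs 1 to 4), 53 with limma-voom, 368 in replicates 1 and 2 alone, 46 in replicates 3 and 4 alone and 1 without the replicate block. These alternatives to the fit of the 8 DN libraries were chosen after seeing the data. All 31 genes kept their sign in them. That was largely fixed beforehand, since each was chosen from these same libraries and had 1 direction in all 4 pairs. Thy1, Actb, Serpine2, Max and mt-Co1 stayed called whichever pair was left out, which is a description of the same libraries. The count of genes whose effects differed between the arms (1739) was 251 without the replicate block, 989 to 1272 with 1 replicate left out, 3051 without MockUP replicate 2, 270 in replicates 1 and 2 and 3134 in replicates 3 and 4. Without a filter 58.1% of genes had an interval within 2-fold. The causes of these shifts were not tested, apart from the genes and libraries each setting adds or removes. No called value changed sign, and up to 10 of the named genes, none of them called over all 16 libraries, changed sign in a setting. Depth limits scarce genes most, as the interval widths by level show.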

Other observations

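Several further gene groups had medians on one side of 0 or near it. Of 25 T cell receptor and co-stimulation genes 19 had a positive log2 fold change (median 0.0497, and 0.019 without pair 2), and Tnfrsf4, the co-stimulatory receptor OX40, stood lowest at -0.22. Of 29 cytokine and receptor genes 20 were positive (median 0.0636). The early response genes that T cell receptor signals switch on had 25 positive values of 27 (median 0.0613), among them Fos at 0.16 and Ier5 at 0.18. That median was 0.0136 without pair 2 and -0.0214 in replicates 3 and 4 alone. Cytosolic ribosomal protein genes had 32 positive values of 35 (median 0.0686), and the median was below 0 without replicate 3 and in replicates 1 and 2 alone, the lowest being -0.0331. Nuclear long RNAs had 5 positive values of 5 (median 0.152). The hypoxia list (10 positive, 12 negative, median -0.00277), lipid uptake and storage (10 and 8, median 0.0089) and amino acid transport and stress response (8 and 10, median -0.0232) leaned neither way. None of these lists had a member called over all 16 libraries, and Malat1 was the member called in the 8 DN libraries.

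The B and plasma cell markers summed to 167 to 205 CPM in Foxp3DN and 168 to 199 CPM in MockDN. Nearly all of it was Ighm, the IgM heavy chain gene, at 162.5 to 199.6 CPM and 163.6 to 194.2 CPM, and Ms4a1 was at 0 in all 8 libraries. CD4 T cell markers summed to 24.9 to 35.0 CPM against 26.9 to 31.1 CPM, and NK cell markers to 15.4 to 19.6 CPM against 14.3 to 19.3 CPM. The endothelial markers summed to 58.3 to 65.6 CPM against 54.4 to 64.6 CPM, with Cdh5 and Tie1 at 0, and the epithelial markers to 6.25 to 10.8 CPM against 8.1 to 11.3 CPM, with Krt14 at 0. Fibroblast and pericyte markers reached at most 2.3 CPM in Foxp3DN and 0.317 CPM in MockDN.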
